A study of Mus musculus with 18 samples.

Results

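The comparison described here set the transcriptome of *Nova1-/-* cortex against that of wild-type littermate cortex. NOVA1 is a neuronal RNA-binding protein of the KH-domain family that binds clusters of YCAY sequence in pre-mRNA and directs the inclusion or skipping of nearby alternative exons, and its paralog NOVA2 recognizes the same sequence. Loss of a splicing factor need not alter how much of a transcript is present, and the comparison asks which transcripts differ in abundance once *Nova1* is absent. At the end of gestation the mouse cortex holds radial glia that are finishing neurogenesis, layered projection neurons, interneurons that have migrated in from the ganglionic eminences, and the vessels and meninges that cover and feed the tissue.

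The members were chosen by their labels: 3 *Nova1-/-* cortices (replicates 1 to 3) and 3 wild-type littermate cortices (replicates 4 to 6), 6 of the 18 RNA-seq libraries of the series, all from CD1 mice at embryonic day (E) 18.5. The sources used here do not describe how the *Nova1* allele was built. A separate set of 6 cortices, 3 *Nova2-/-* and 3 wild-type littermates of the *Nova2* line, served only for a test of whether the changes in both lines differed. The labels name no sex, litter or batch for single mice, so p-values measure the spread between these libraries.

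Total RNA had been depleted of ribosomal RNA and sequenced, and the count totals of the 6 libraries ran from 23854190 to 31361972. Of 23038 genes listed, 15901 had enough counts to be tested. Libraries of the same genotype were hardly more alike than libraries of different genotype. The SD of the log2 difference between a pair of libraries was 0.211 to 0.272 (median 0.241) for the 6 pairs within a genotype and 0.225 to 0.278 (median 0.258) for the 9 pairs between genotypes. Markers of upper-layer projection neurons summed to 2170 to 2320 CPM (counts scaled to a fixed library size) in these cortices, whereas all 39 *Hox* genes of the table together summed to 0.125 to 0.338 CPM.

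Several features set single libraries apart before any comparison was made. *Xist*, the RNA of the inactive X chromosome, stood at 2030 to 2290 CPM, scaled over all 12 cortices, in 5 mice but at 129 CPM in *Nova1-/-* replicate 2, which is 6.17% of the median of the other 5. The same replicate held 13048 counts of the 4 Y-linked genes *Ddx3y*, *Uty*, *Kdm5d* and *Eif2s3y*, and *Nova1-/-* replicate 3, with full *Xist*, held 628 such counts, 5.97% of replicate 2 in CPM. The remaining 4 mice had at most 24. Transcripts of both kinds therefore occurred together in both libraries. In the *Nova2* litters, *Nova2-/-* replicate 3 held 443 Y-linked counts beside *Xist* at 1900 CPM. Wild-type replicates 2 and 3 of those litters held 7853 and 13312 Y-linked counts, with *Xist* at 4.15 and 11.6 CPM. *Xist* was at 1810 to 1900 CPM in the *Nova2-/-* mice. Sex-linked transcripts were thus not balanced between genotypes in either line, and sex was not a term in the fits. For the *Nova1* litters, counts were also made without *Nova1-/-* replicate 2 or 3, or with both summed into 1. Choroid plexus transcripts, led by the thyroxine carrier *Ttr*, were low in 1 mouse of each genotype. *Ttr* stood at 226, 967 and 885 CPM in wild-type replicates 4, 5 and 6 and at 902, 104 and 844 CPM in *Nova1-/-* replicates 1, 2 and 3.

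*Nova1* transcript was all but missing from the cortex of *Nova1-/-* mice. The gene lies on chromosome 12 (chr12:46697895-46819480 in GRCm38.p6). Its level was 71.0, 75.6 and 41.3 CPM in wild-type replicates 4, 5 and 6 (62.6 ± 18.6, SD, n = 3), and the knockout libraries held 3, 1 and 5 counts, or 0.112, 0.0338 and 0.210 CPM. *Nova1* fell by 9.06 on the log2 scale (standard error (SE) 0.916, adjusted p (FDR) 7.94e-07, quasi-likelihood F test in edgeR, adjusted by Benjamini-Hochberg). The groups did not overlap, so mice labelled knockout and wild-type were told apart by the targeted gene. That check cannot tell a wild-type label from a heterozygous one. Wild-type replicate 6 stood apart from its littermates, since in all 8 other mice of the series with an intact *Nova1* gene the transcript reached 61.7 to 92.9 CPM on a scale common to the 12 cortices, and replicate 6 was at 53.5% of their median.

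*Nova2*, the paralog that could stand in for NOVA1, did not pass the test. Its level was 44.1, 50.1 and 50.2 CPM in wild-type and 63.2, 48.6 and 42.9 CPM in *Nova1-/-* cortex. The highest and the lowest of the 6 values both belonged to knockout mice. The log2 fold change was 0.10 with a 95% interval from -0.16 to 0.36 (FDR 0.890), so a rise beyond that upper bound was outside the interval.

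*Hif3a* was the other transcript to change. The gene (chr7:17030993-17062427 in GRCm38.p6) encodes a member of the hypoxia-inducible factor alpha family, some isoforms of which restrain transcription by the HIF1 and HIF2 complexes. Its level was 3.92, 4.75 and 4.38 CPM in wild-type replicates 4, 5 and 6 and 9.22, 10.6 and 12.2 CPM in *Nova1-/-* replicates 1, 2 and 3, with no overlap between groups. *Hif3a* rose by 1.29 on the log2 scale (SE 0.138, FDR 0.00827). The call was lost when wild-type replicate 4 (FDR 0.0948), wild-type replicate 6 (0.0628) or *Nova1-/-* replicate 2 (0.0619) was left out, while the fold change then stayed at 1.23, 1.30 and 1.30.

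The upstream sequence of *Hif3a* is shown because it is the gene that rose, and because hypoxia-inducible factors bind a short core, ACGTG or GCGTG, in the genes they regulate. The 250 bases before its annotated start (RefSeq, GRCm38.p6, chr7:17062428-17062677, minus strand, 5′ to 3′) held the core 2 times when both strands were searched, marked in capitals, with the more distant match beginning 230 bases before the start. The same core occurred in 38.6% of 32851 promoter windows of that length, so its presence is common.
Hif3a: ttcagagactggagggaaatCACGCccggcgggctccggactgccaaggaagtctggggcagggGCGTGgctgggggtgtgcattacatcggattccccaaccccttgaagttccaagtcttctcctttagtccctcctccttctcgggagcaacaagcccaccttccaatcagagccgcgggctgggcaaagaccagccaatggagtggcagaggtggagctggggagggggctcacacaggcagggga

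*Hif3a* was also higher in the other line. It stood at 3.92, 5.61 and 4.34 CPM in the wild-type littermates of that line and at 9.59, 8.44 and 10.6 CPM in *Nova2-/-* mice (log2 fold change 1.05, SE 0.177, FDR 0.0386). Every knockout cortex of either line thus lay above every wild-type cortex. The change in *Nova1-/-* minus that in *Nova2-/-* was 0.25 with a 95% interval from -0.23 to 0.73 (FDR 0.604), so the changes in both lines were not told apart, and the interval leaves room for a difference either way.

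**Figure D1:**
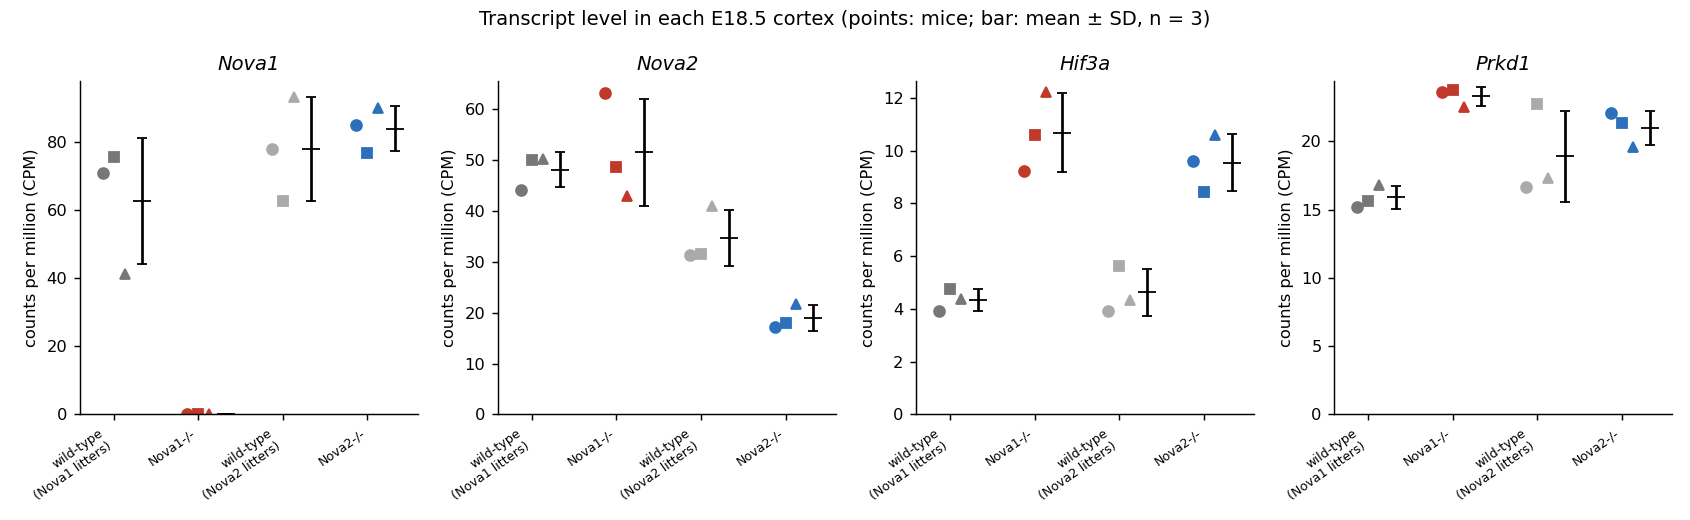
Level of 4 transcripts in each E18.5 cortex in CPM (points, 1 per mouse; black bar, mean ± SD, n = 3) for both knockouts and their own wild-type littermates. *Nova1* is at 0.0338 to 0.210 CPM in *Nova1-/-* mice alone, and all *Hif3a* values of both knockouts (8.44 CPM and above) lie over all wild-type values (5.61 CPM and below).

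These 2 transcripts were the only ones of 15901 tested to pass both thresholds (FDR below 0.05, and at least 1 unit on the log2 scale either way), a share of 0.0126%, and without the fold threshold the number was also 2. At an unadjusted p below 0.05 there were 1183 transcripts (7.44%), 600 higher (3.77%) and 583 lower (3.67%) in *Nova1-/-* cortex. Groups of 3 did not overlap for 2138 transcripts (13.4%). DESeq2 placed 34 transcripts below an FDR of 0.05, of which 4 reached the fold threshold. Leaving out *Nova1-/-* replicate 1 gave 7 changed transcripts, of which 4 were the Y-linked genes.

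The 6 libraries also bounded how far most transcripts could have moved. The 95% interval of the log2 fold change lay within -1 to 1 for 14578 transcripts (91.7%), and within -0.5 to 0.5 for 11721 (73.7%). Among the 10294 transcripts with a mean of at least 10 CPM, 97.4% had an interval within -0.5 to 0.5. The median log2 fold change in size was 0.0799 over all tested transcripts, with a median SE of 0.0955.

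**Figure D2:**
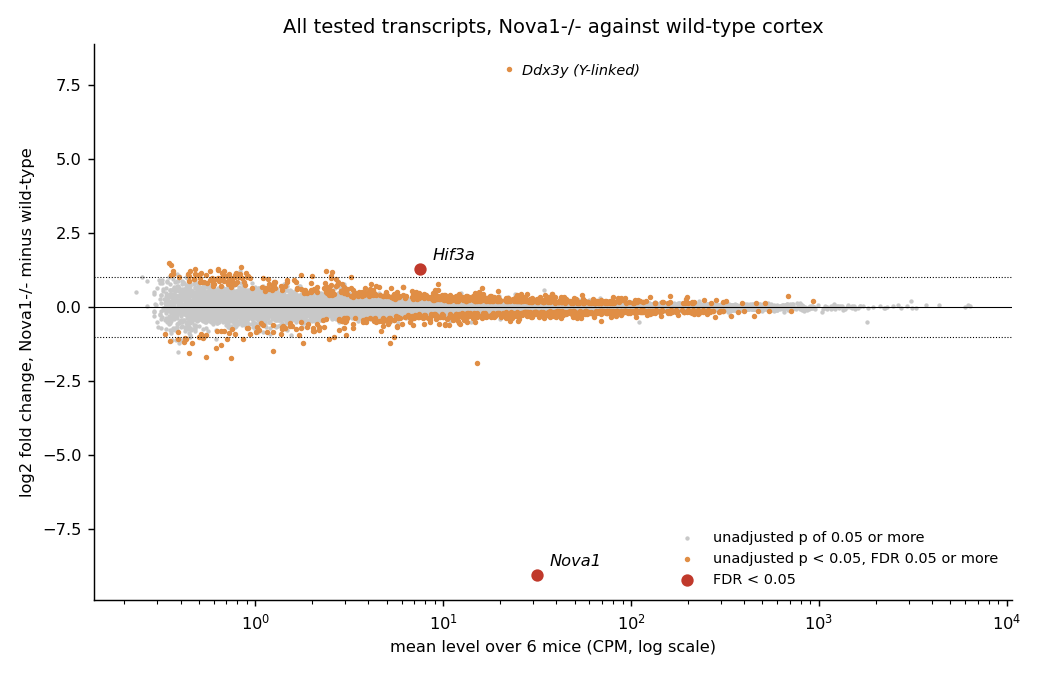
Log2 fold change (*Nova1-/-* minus wild-type) of each of 15901 tested transcripts against its mean level over 6 mice in CPM (log axis). Dotted lines mark a log2 fold change of 1 in size; *Nova1* (-9.06) and *Hif3a* (1.29) are the points past the FDR threshold, and *Ddx3y* (8.04, FDR 0.422) is the Y-linked gene read mainly in *Nova1-/-* replicate 2.

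Among transcripts with a mean of at least 1 CPM whose groups did not overlap, the largest differences at an unadjusted p below 0.05, beyond those genes, belonged to transcripts of low abundance, and none of them passed the FDR threshold. On the higher side, *Kcna5*, which encodes a voltage-gated potassium channel, stood at 1.38, 1.88 and 1.68 CPM in wild-type and 2.83, 3.72 and 3.75 CPM in *Nova1-/-* mice (log2 fold change 1.06, SE 0.202, FDR 0.282). *Fam107a*, a gene of radial glia and astrocytes known to respond to stress hormones, gave 1.01 (FDR 0.282). The groups did not overlap for either gene.

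Further transcripts of the higher set were *Jmjd7* (1.22), *Ppp1r32* (1.08), *Mc5r* (1.06), *Gstm6* (0.97), *Cd33* (0.95) and *Frrs1* (0.95), with FDR from 0.282 to 0.658. *Jmjd7* rested on 1 mouse, since its level was 1.56, 1.49 and 6.99 CPM in *Nova1-/-* replicates 1, 2 and 3 and 1.38 to 1.45 CPM in wild-type mice, and without replicate 3 its log2 fold change was 0.117.

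On the lower side of the same set, after *Nova1*, stood *Cd209f*, a lectin gene of tissue macrophages, at 1.31, 2.12 and 2.10 CPM in wild-type and 0.855, 0.575 and 0.505 CPM in *Nova1-/-* mice (log2 fold change -1.50, SE 0.310, FDR 0.282). *Cpa3*, which encodes the carboxypeptidase of mast cells, followed with -1.22 (FDR 0.503), where wild-type replicate 6 alone was at 4.09 CPM and the value without it was -0.649. *Plau*, which encodes the urokinase plasminogen activator, gave -1.01 (FDR 0.282) and *Aox3*, an aldehyde oxidase gene, -1.07 (FDR 0.395). *Tnfsf10*, *Gimap4*, *Gjb2*, *Ptgfr* and *Slc6a12* lay between -0.92 and -0.81. *Gjb2*, a gap-junction gene of the meninges, went from 6.25, 4.88 and 6.67 CPM in wild-type to 3.83, 3.21 and 3.07 CPM in *Nova1-/-* mice (FDR 0.282).

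Cell-type content was read next, from lists of marker genes described by how many members lay at an unadjusted p below 0.05, beside 3.77% higher and 3.67% lower over all tested transcripts. In bulk tissue fewer cells of a type and less RNA per cell cannot be told apart. Among 54 lists, no member other than *Nova1* and *Hif3a* passed the FDR threshold, so none of the counts below is a call of a changed gene. Summed levels did not overlap between genotypes in 6 of the 54 lists, beside 13.4% of single transcripts.

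Neurons and their progenitors showed few differences. Of 12 markers of upper-layer projection neurons none lay at an unadjusted p below 0.05, and their summed level was 2170, 2210 and 2320 CPM in wild-type and 2230, 2220 and 2190 CPM in *Nova1-/-* mice. Of 11 markers of deep-layer neurons 1 did, the subcerebral factor *Bcl11b*, at 173, 186 and 189 CPM against 165, 163 and 160 CPM (log2 fold change -0.17, SE 0.0527, FDR 0.522). Of 14 radial glial markers 1 was higher, the receptor *Notch1*, at 62.0, 57.3 and 70.2 CPM against 75.5, 76.2 and 74.0 CPM (0.25, FDR 0.505). No marker of intermediate progenitors (8 tested) or Cajal-Retzius cells (8 tested) lay below that p. Of 10 subplate markers 2 were lower, *Tmem163* (-0.32) and *Inpp4b* (-0.25), and 8 log2 fold changes were negative and 2 positive, with a median of -0.0908. The count of lower subplate markers ran from 0 (without *Nova1-/-* replicate 2) to 3 (without wild-type replicate 4), and was 1 in a fit of 12 cortices.

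Interneuron markers leaned upward in number but hardly in level. Of 20 tested, 4 were higher and none lower, among them *Dlx2* (0.32) and *Dlx6* (0.27), which encode homeodomain factors of the ganglionic eminence lineage, and *Lhx6* (0.17), named after its values were seen. The summed level was 875, 823 and 832 CPM in wild-type and 864, 840 and 877 CPM in *Nova1-/-* mice, with overlap, and the GABA-synthesizing enzyme gene *Gad1* gave 0.02. The number was 0 without *Nova1-/-* replicate 2, without replicate 3, or with both summed into 1 library.

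Glial and immune markers gave small counts, though each list held a larger share of lower members than the 3.67% of all tested transcripts. In the fit of 12 cortices 2 oligodendrocyte-lineage, 1 astrocyte and 1 macrophage marker were lower. Lower members with any 1 mouse left out numbered 1 to 5 for the oligodendrocyte lineage. They numbered 1 to 4 for astrocytes and 0 to 3 for macrophages. Of 15 oligodendrocyte-lineage markers none was higher and 3 were lower, *Cldn11* (-0.36), *Gpr17* (-0.27) and *Olig2* (-0.24), of which *Cldn11* is also a meningeal gene. Of the log2 fold changes of that list 12 were negative and 3 positive, with a median of -0.11. Of 16 astrocyte markers 3 were lower and 1 higher, with the gap-junction gene *Gja1* (-0.23) and *Id3* (-0.24) among the lower and the angiotensinogen gene *Agt* (0.46) on the other side. Of 18 microglial and macrophage markers 3 were lower and 1 higher, among them the fractalkine receptor gene *Cx3cr1* (-0.34) and the scavenger receptor gene *Cd163* (0.42). The summed macrophage level overlapped between genotypes, at 262, 265 and 249 CPM against 247, 252 and 233 CPM.

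**Figure D3:**
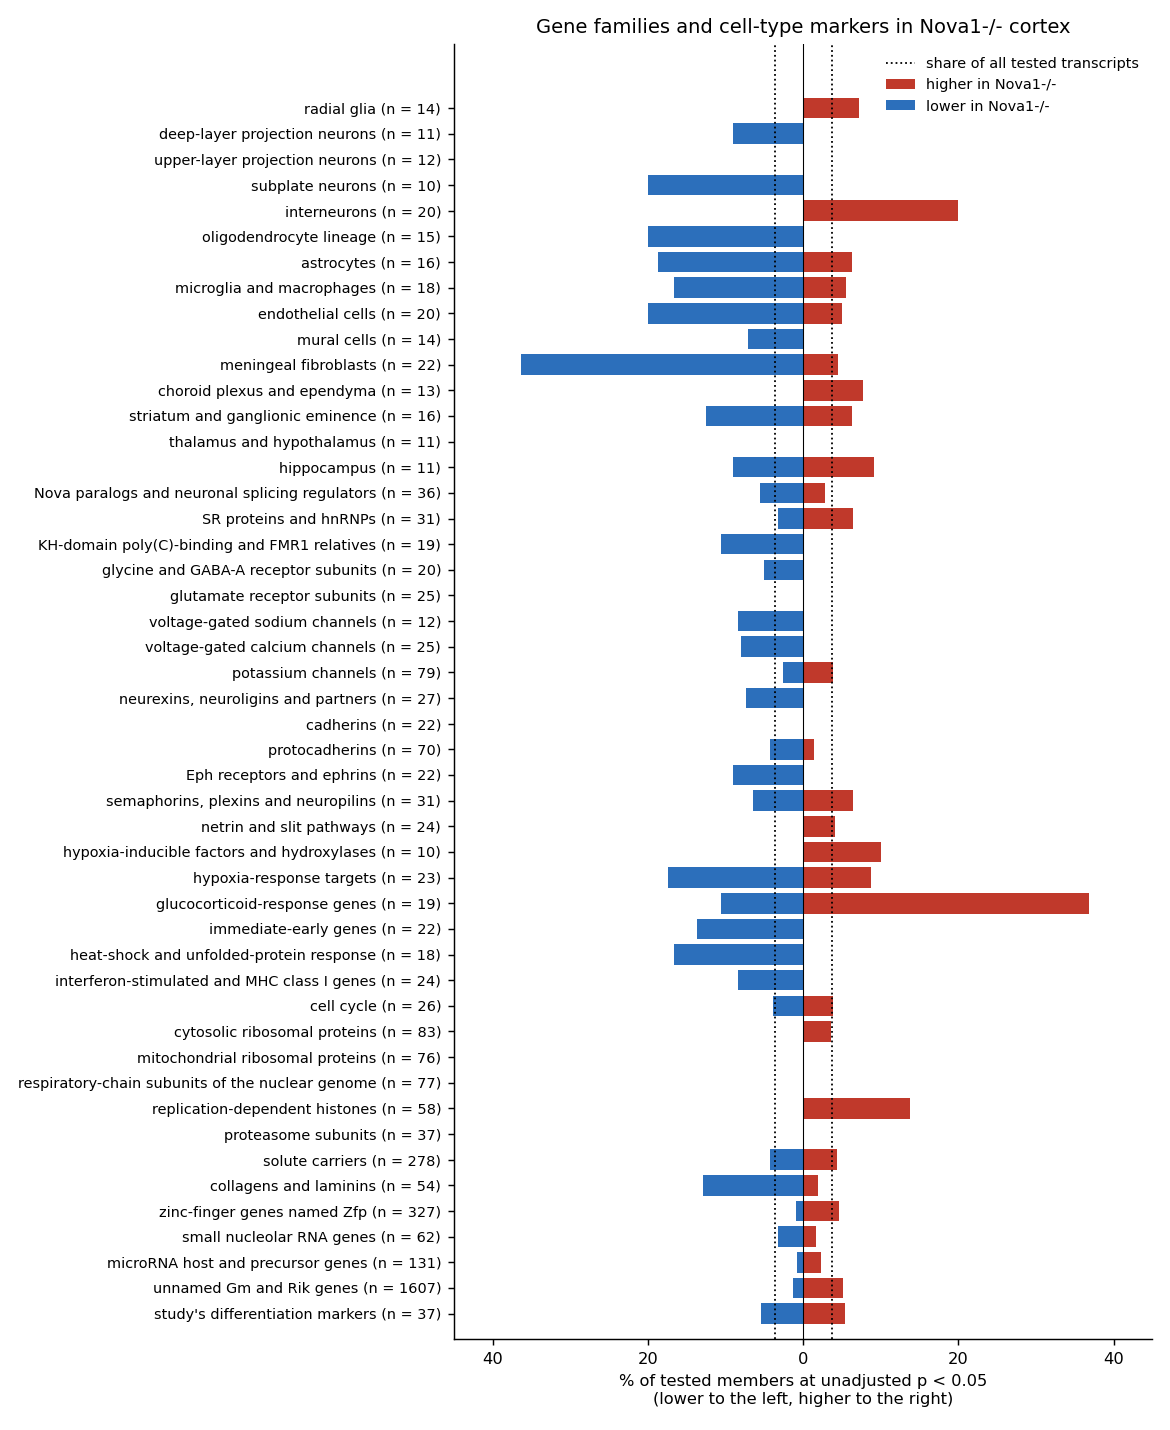
Percent of tested members of each list at an unadjusted p below 0.05, higher (red, right) or lower (blue, left) in *Nova1-/-* cortex, for lists of at least 10 tested members; dotted lines give 3.77% and 3.67% of all tested transcripts. Meningeal markers extend farthest to the left (8 of 22) and glucocorticoid-response genes farthest to the right (7 of 19).

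Markers of meningeal fibroblasts, the cells that lay down the collagen-rich covering of the brain, held the highest share of lower members. Of 22 tested, 8 were lower and 1 higher at an unadjusted p below 0.05, and 21 of 22 log2 fold changes were negative, with a median of -0.229 against 0.0018 over all transcripts. The fibrillar collagen gene *Col3a1* stood at 380, 324 and 425 CPM in wild-type and 299, 324 and 282 CPM in *Nova1-/-* mice (log2 fold change -0.32, SE 0.0877, FDR 0.483). *Crabp2*, which binds retinoic acid, gave -0.66, the meningeal factor gene *Foxd1* -0.65 and the tight-junction gene *Cldn11* -0.36, and *Zic1*, a zinc-finger gene also active in neural tissue, gave 0.45. The summed level was 1590, 1370 and 1690 CPM in wild-type and 1390, 1390 and 1210 CPM in *Nova1-/-* mice, and wild-type replicate 5 lay among the knockouts. The count of lower members ran from 6 to 12 with any 1 mouse left out, and was 2 when all 12 cortices shared 1 estimate of the spread.

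Collagens and laminins, a family fixed by name that shares members with the meningeal list, held a smaller share of lower members. Of 54 tested, 7 were lower and 1 higher, 36 log2 fold changes were negative and the median was -0.0528, with *Col6a3* (-0.36), *Col3a1* (-0.32) and *Col1a2* (-0.28) on the lower side and *Col5a3* (0.54) on the other. The basement-membrane pair *Col4a1* and *Col4a2* gave -0.14 and -0.16. The summed level was 2540, 2490 and 2750 CPM in wild-type and 2420, 2460 and 2200 CPM in *Nova1-/-* mice, so the genotypes did not overlap, by a margin of 2460 against 2490 CPM. The count of lower members ran from 3 (without *Nova1-/-* replicate 3) to 10 (without *Nova1-/-* replicate 1) and was 0 in the fit of 12 cortices.

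Vascular markers gave members in both directions. Of 20 endothelial markers 4 were lower and 1 higher at an unadjusted p below 0.05, and 14 log2 fold changes were negative and 6 positive, with a median of -0.103. *Kdr*, the receptor for vascular endothelial growth factor, stood at 61.0, 59.5 and 63.3 CPM in wild-type and 54.2, 46.8 and 40.9 CPM in *Nova1-/-* mice (log2 fold change -0.37, SE 0.0898, FDR 0.422). The transcription factor gene *Fli1* gave -0.35, and *Emcn* (-0.34) and *Egfl7* (-0.26), named after their values were seen, were the other lower ones. The glucose transporter gene *Slc2a1* was on the higher side (0.35). Of 14 mural markers 1 was lower, *Vtn* (-0.28), with 8 negative and 6 positive log2 fold changes and a median of -0.0575. In the fit of 12 cortices 2 endothelial and 0 mural markers were lower. The summed levels of both lists did not overlap between genotypes, at 412 to 434 CPM against 382 to 411 CPM for endothelial and 250 to 269 CPM against 241 to 248 CPM for mural markers. The margins were narrow, 411 against 412 CPM and 248 against 250 CPM, and 6 of all 54 lists were apart in this way.

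Content of neighbouring tissue was also measured. Summed choroid plexus and ependymal markers were 263, 1040 and 947 CPM in wild-type and 969, 138 and 908 CPM in *Nova1-/-* mice, 1 low mouse in each genotype, and 1 of 13 members, the ciliary gene *Rsph1*, was higher (0.73, FDR 0.505). Striatal markers gave 2 lower members, the dopamine-signalling genes *Drd1a* (-0.26) and *Ppp1r1b* (-0.22), and 1 higher, *Six3* (0.60), of 16 tested. No thalamic or hypothalamic marker (11 tested) lay at an unadjusted p below 0.05, and 3 of 22 midbrain and hindbrain markers were abundant enough to be tested. Of 11 hippocampal markers 1 was higher, *Zbtb20* (0.14), and 1 lower, *Etv1* (-0.31). *Etv1* also lies on chromosome 12, 7.83 Mb from *Nova1*, among the neighbours of that gene described further on. Red-cell transcripts overlapped, at 186 to 236 CPM in wild-type and 184 to 249 CPM in *Nova1-/-* mice. The part of dissection in the meningeal, vascular and choroid plexus values was not tested.

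**Figure D4:**
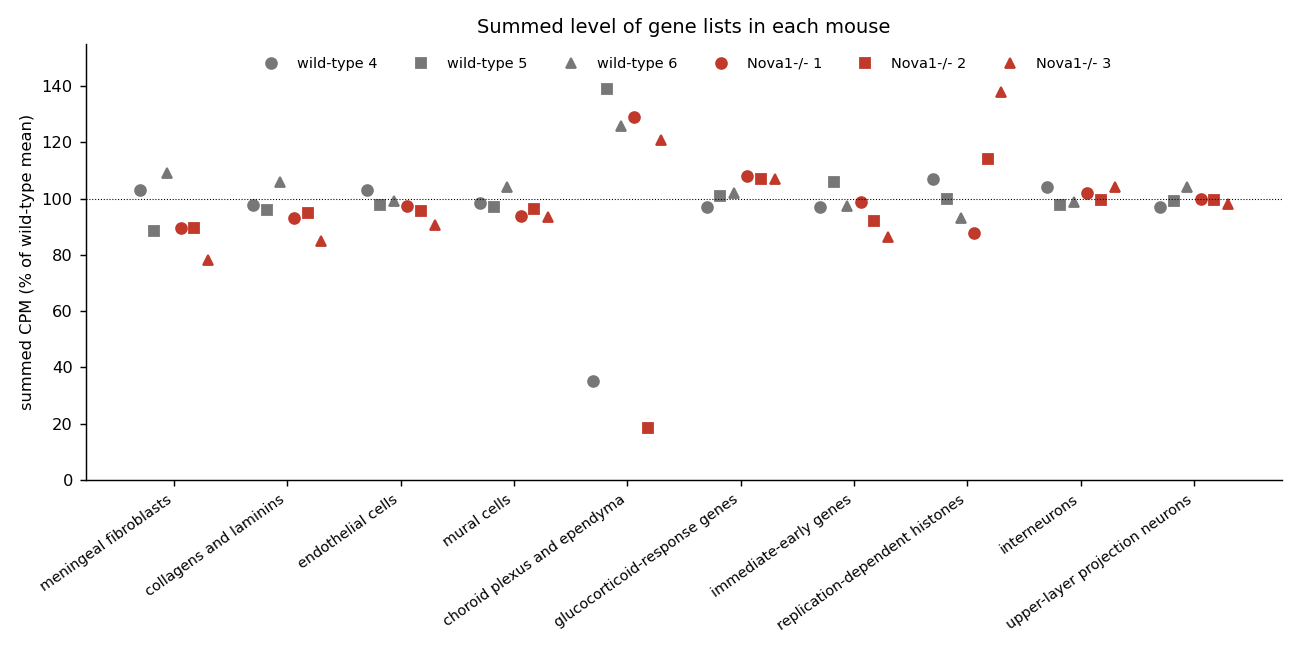
Summed CPM of each list in each mouse as a percent of the wild-type mean (grey, wild-type replicates 4 to 6; red, *Nova1-/-* replicates 1 to 3). Meningeal markers span 88.4% to 109% in wild-type and 78.1% to 89.7% in *Nova1-/-* mice, choroid plexus markers fall to 35.1% and 18.4% in 1 mouse of each genotype, and glucocorticoid-response genes lie at 107% to 108% in all *Nova1-/-* mice.

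Genes of hypoxia were examined because of *Hif3a*. Among 10 genes of hypoxia-inducible factors and the hydroxylases that regulate them, *Hif3a* was the single one at an unadjusted p below 0.05. The alpha-family gene *Hif1a* stood at 260, 247 and 248 CPM against 230, 231 and 246 CPM (log2 fold change -0.10, FDR 0.706). Among 23 target genes of the hypoxia response 2 were higher, *Slc2a1* (0.35) and the mTOR inhibitor gene *Ddit4* (0.29), and 4 lower, with the glycolytic genes *Eno1* (-0.27), *Tpi1* (-0.16) and *Aldoa* (-0.14) among them. Their median was -0.0816, and their summed level overlapped, at 1470 to 1560 CPM against 1420 to 1480 CPM.

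Glucocorticoid-response genes, induced by stress steroids through the receptor NR3C1, held the highest share of higher members. Of 19 tested, 7 were higher and 2 lower, with a median of 0.102. The circadian gene *Per1* stood at 18.1, 23.5 and 24.4 CPM in wild-type and 33.8, 28.5 and 27.8 CPM in *Nova1-/-* mice (log2 fold change 0.45, SE 0.118, FDR 0.435). The receptor co-chaperone gene *Fkbp5* went from 34.1, 35.4 and 32.8 CPM to 38.8, 39.8 and 42.8 CPM (0.25, FDR 0.503), *Pdk4* gave 0.40 and *Zbtb16* 0.37. On the lower side were the receptor gene *Nr3c1* itself (-0.22) and the lipoprotein lipase inhibitor gene *Angptl4* (-0.30), named after its value was seen. The summed level was 344, 356 and 362 CPM in wild-type and 382, 380 and 378 CPM in *Nova1-/-* mice, with no overlap. Sums were apart in 6 of the 54 lists. With any 1 mouse left out the median ran from 0.107 to 0.214 (0.214 without wild-type replicate 6, 0.174 without *Nova1-/-* replicate 2 or 3), 5 or 6 members were higher, and in the fit of 12 cortices 3 were. The *Hif3a* gene is not in that list.

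Immediate-early genes, which neurons switch on within minutes of activity or handling, leaned the other way. Of 22 tested 3 were lower and none higher: *Fosb* (-1.74), *Fos* (-1.22) and *Egr1* (-0.46). *Fos* stood at 11.3, 6.50 and 3.94 CPM in wild-type and 4.35, 2.88 and 2.06 CPM in *Nova1-/-* mice (log2 fold change SE 0.352, FDR 0.503), and its groups overlapped, as did those of the other pair. Wild-type replicate 4 was the highest mouse for all 3 genes, and without it *Fos* gave -0.727 and *Fosb* -0.754. With any 1 mouse left out *Fos* ran from -1.53 to -0.727, *Fosb* from -2.2 to -0.754 and *Egr1* from -0.711 to -0.326. The count of lower members ran from 2 to 6 (6 without *Nova1-/-* replicate 1), and was 0 without both mice low in choroid plexus transcripts.

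Of 18 heat-shock and unfolded-protein-response genes 3 were lower and none higher at an unadjusted p below 0.05, all 3 with groups that did not overlap: *Hspa5*, the lumenal chaperone BiP, *Pdia4*, a disulfide isomerase, and *Xbp1*, a transcription factor of the response. *Hspa5* stood at 345, 304 and 292 CPM in wild-type and 267, 242 and 236 CPM in *Nova1-/-* mice (log2 fold change -0.34, SE 0.0703, FDR 0.282). *Pdia4* stood at 125, 118 and 112 CPM against 92.1, 95 and 94.4 CPM (-0.33, SE 0.0576, FDR 0.267). *Xbp1* stood at 61.6, 55.6 and 57.8 CPM against 46.8, 46.8 and 41.9 CPM (-0.37, SE 0.0691, FDR 0.282). The median of the list was -0.013, and 11 of 18 log2 fold changes were negative. The chaperone gene *Dnajb9* of the same list gave -0.09 (FDR 0.856). With any 1 mouse left out 3 or 4 members were lower.

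The upstream sequence of *Hspa5* is shown because this gene carries the element through which the unfolded-protein response acts, ERSE, in which CCAAT and CCACG stand 9 bases apart, searched on both strands. The 250 bases before the start (RefSeq, GRCm38.p6, chr2:34771840-34772089, plus strand, 5′ to 3′) held it 1 time, in capitals, beginning 65 bases before the start. Of 32851 promoter windows of that length 0.113% held those letters, and the windows of *Pdia4* and *Xbp1* did not.
Hspa5: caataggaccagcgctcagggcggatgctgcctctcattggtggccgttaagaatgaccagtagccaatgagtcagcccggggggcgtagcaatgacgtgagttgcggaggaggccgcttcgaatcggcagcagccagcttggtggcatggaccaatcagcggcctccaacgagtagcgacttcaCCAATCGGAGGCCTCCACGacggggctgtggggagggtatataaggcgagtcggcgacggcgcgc

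RNA-binding protein genes were examined for a response to the loss of their relative. Of 36 Nova paralogs and neuronal splicing regulators 1 was higher and 2 were lower at an unadjusted p below 0.05, the lower ones being *Nova1* itself and the splicing regulator gene *Khdrbs3* (-0.16, FDR 0.544). The polypyrimidine-tract-binding paralog *Ptbp2* stood at 644, 623 and 609 CPM in wild-type and 598, 644 and 724 CPM in *Nova1-/-* mice (0.07). Of 31 SR proteins and hnRNPs 2 were higher, *Hnrnpa1* (0.20) and *Srsf5* (0.13), and 1 lower, *Tra2a* (-0.31). Of 19 other KH-domain genes 2 were lower, *Mex3b* (-0.16) and *Fubp1* (-0.12).

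Transcripts of synapses and excitability include many with exons that NOVA proteins are known to regulate. Of 25 glutamate receptor genes none lay at an unadjusted p below 0.05, and the log2 fold changes ran from -0.20 to 0.286. Of 20 glycine and GABA-A receptor genes 1 was lower, *Gabra4* (-0.21). Of 12 sodium channel genes 1 was lower, *Scn1a* (-0.13), and of 25 calcium channel genes 2, *Cacna2d3* and *Cacnb3* (both -0.17). Of 79 potassium channel genes 3 were higher and 2 lower, close to the background share in each direction. These counts moved with 1 library: without *Nova1-/-* replicate 1, 7 of 25 glutamate receptor genes, 7 of 25 calcium channel genes and 5 of 79 potassium channel genes were lower.

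None of 22 cadherin genes and 2 of 27 neurexins, neuroligins and partners lay at an unadjusted p below 0.05. Of 70 protocadherin genes 1 was higher, *Pcdhga3* (0.33), and 3 were lower, of which *Pcdh12* (-0.45) is an endothelial one. Without *Nova1-/-* replicate 1, 9 protocadherin, 4 neurexin-family and 3 cadherin genes were lower. Of 22 Eph receptor and ephrin genes 2 were lower, *Efna3* (-0.22) and *Epha7* (-0.15). Of 31 semaphorins, plexins and neuropilins 2 were higher and 2 lower, and of 24 genes of the netrin and slit pathways 1 was higher, *Ntng2* (0.56, FDR 0.435). A list of 37 differentiation markers that the study itself showed for these samples, and which is therefore not independent evidence, gave 2 higher (*Notch1* and *Sox1*) and 2 lower (*Olig2* and *Bcl11b*).

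Housekeeping families gave few members at that p. Of 83 cytosolic ribosomal protein genes 3 were higher, *Rpl28* (0.65), *Rps16* (0.41) and *Rpl36* (0.24), with a list median of 0.0516. None of 76 mitochondrial ribosomal, 77 respiratory-chain or 37 proteasome genes lay at an unadjusted p below 0.05. Without wild-type replicate 4, 16 cytosolic ribosomal and 17 respiratory-chain genes were higher, and without *Nova1-/-* replicate 1 the numbers were 13 and 3, so these counts hung on single libraries. Ribosomal protein genes are often confused with their processed pseudogenes in read counting, so single members are uncertain. Solute carriers gave 12 higher and 12 lower of 278, and interferon-stimulated and MHC class I genes 2 lower of 24, *Gbp3* (-0.71) and *Gbp6* (-0.67).

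Replication-dependent histones were an exception that followed single mice. Of 58 tested 8 were higher and none lower, and 54 log2 fold changes were positive, with a median of 0.176. The summed level was 1840, 1720 and 1600 CPM in wild-type and 1510, 1960 and 2380 CPM in *Nova1-/-* mice, so the lowest and the highest mouse were both knockouts. Without *Nova1-/-* replicate 3 the median was -0.0209 and 1 member was higher, and without *Nova1-/-* replicate 1 it was 0.332 with 36 higher. The summed level of 26 cell-cycle genes was likewise lowest in *Nova1-/-* replicate 1 (921 CPM) and highest in *Nova1-/-* replicate 3 (1190 CPM), and 7 of them were higher without *Nova1-/-* replicate 1 beside 1 with all mice. Histone genes are near-identical copies, and reads shared between them make single members uncertain.

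Both of the broad name classes below held more higher than lower members, beside 3.77% higher and 3.67% lower over all tested transcripts. Of 1607 unnamed transcripts with Gm or Rik symbols 83 were higher and 21 lower, with a median of 0.0403, and of 327 zinc-finger genes named *Zfp* 15 were higher and 3 lower, with a median of 0.0102. The share of higher *Zfp* genes was close to the background share. Without wild-type replicate 6, 9 *Zfp* genes were higher and 5 lower, with a median of -0.00803, and in the fit of 12 cortices 5 were higher and 0 lower. Of 131 microRNA host or precursor entries 3 were higher and 1 lower, and of 62 small nucleolar RNA entries 1 was higher and 2 were lower. For the unnamed transcripts more members were higher than lower with each of the 6 mice left out, with 56 to 103 higher.

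The neighbourhood of *Nova1* on chromosome 12 was described apart, because the paper states that the line was backcrossed from another strain background. The 40 nearest tested genes, 20 on either side, reached up to 11.2 Mb below or 8.04 Mb above *Nova1*. Of these 3 were higher and 6 lower at an unadjusted p below 0.05. Together they made up a larger share than the 7.44% of all transcripts in either direction. None passed the FDR threshold, and a part of strain background was not tested. Their median was -0.0361. *Prkd1*, a protein kinase D gene 3.52 Mb from *Nova1*, had the third smallest p of all transcripts, at 15.2, 15.6 and 16.8 CPM in wild-type and 23.6, 23.8 and 22.5 CPM in *Nova1-/-* mice (log2 fold change 0.55, SE 0.0833, FDR 0.171). In the *Nova2* line it overlapped between genotypes, at 16.6, 22.7 and 17.3 CPM against 22.1, 21.3 and 19.6 CPM.

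The nearest genes showed no common direction. Below *Nova1* stood *Stxbp6* (0.09), *Nrcam* (-0.07), *Pnpla8* (-0.02), *Dnajb9* (-0.09) and *Immp2l* (0.35), and above it, among others, *3110039M20Rik* (0.10), *Prkd1* (0.55), *G2e3* (-0.15) and *Scfd1* (0.20). Of those named, *Prkd1* and *Scfd1*, a vesicle-traffic gene at 109, 103 and 98.4 CPM against 111, 119 and 125 CPM, lay at an unadjusted p below 0.05. Over whole chromosomes the share at that p ran from 5.0% (chromosome 19) to 9.5% (chromosome 9), with chromosome 12 at 6.69%.

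**Figure D5:**
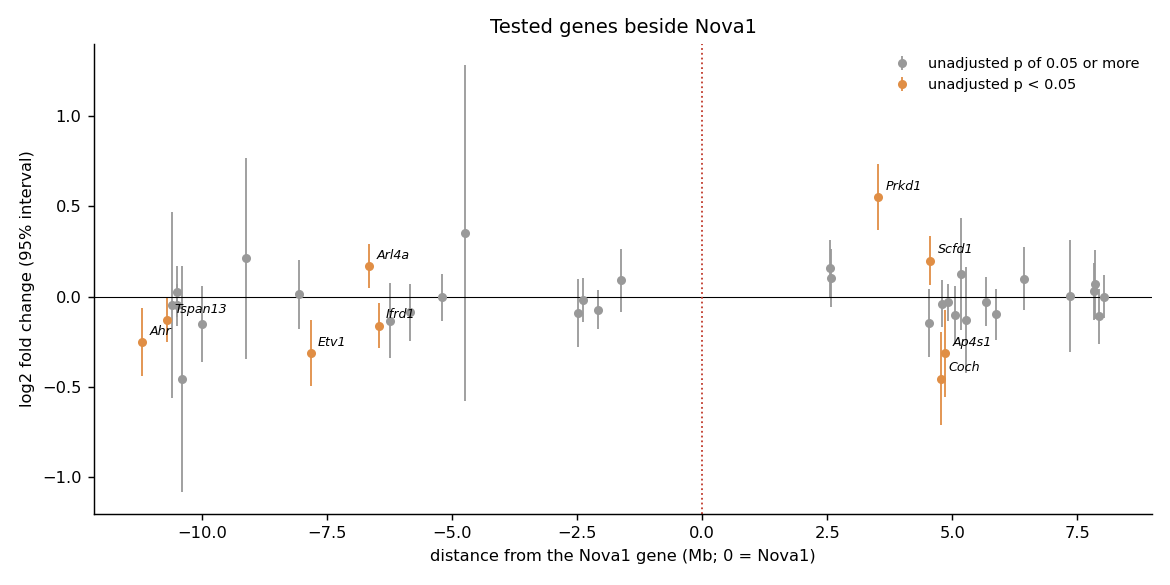
Log2 fold change (*Nova1-/-* minus wild-type, with 95% interval) of the 40 tested genes nearest to *Nova1* against distance from the gene in Mb. Orange points have an unadjusted p below 0.05, 9 of 40, and *Prkd1* at 3.52 Mb is the highest of them (0.55).

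Finally, the change of each transcript in *Nova1-/-* cortex was tested against its change in *Nova2-/-* cortex, over 12 mice and with each knockout set against its own littermates. Of 16210 tested transcripts 199 (1.23%) had a lower and 97 (0.598%) a higher change in *Nova1-/-* at an FDR below 0.05, and 113 of these 296 differed by at least 1 on the log2 scale. Of the 22 meningeal markers 9 had a lower change in *Nova1-/-* and none a higher one. Collagens and laminins gave 15 of 54 and none.

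The median log2 fold change of the meningeal list was 1.33 in *Nova2-/-* and -0.229 in *Nova1-/-* cortex. *Col3a1* stood at 80.6, 108 and 221 CPM in their wild-type mice and 390, 342 and 489 CPM in *Nova2-/-* mice, beside 324 to 425 and 282 to 324 CPM in wild-type and *Nova1-/-* mice of the *Nova1* litters. Its log2 fold change was 1.57 in *Nova2-/-* (FDR 0.0698) and -0.32 in *Nova1-/-* (FDR 0.483), a difference of -1.88 (SE 0.367, FDR 0.0214). *Cldn11* stood at 6.51, 6.93 and 10.6 CPM in wild-type mice of the *Nova2* litters, the lowest of the 4 groups, with a difference of -2.11 (SE 0.207, FDR 0.000244). *Kdr* gave a difference of -1.14 (FDR 0.00193), at 48.5 to 57.7 CPM in wild-type and 82.5 to 100 CPM in *Nova2-/-* mice. The part of dissection in these differences was not tested.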

How the data were processed

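Cortex RNA of 6 E18.5 CD1 mice (3 wild-type, 3 *Nova1-/-*) was analysed, with 6 more of the *Nova2* line for comparison. Per the study's methods, total RNA was depleted of ribosomal RNA and read as TruSeq v2 paired-end libraries. That kit does not mark strand, so overlapping antisense genes cannot be told apart. Reads were aligned to mm10 with OLego; the submitters' processing notes name edgeR and mm9. The deposited values are expected counts per gene symbol made by the authors, not all whole; the counting tool is not given in the sources used here. The 4 columns of the authors' own comparisons (log2 fold changes and FDR) and a table of splicing changes were not used, and 0 columns of per-sample values were left out.

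Expected counts were rounded to whole numbers. Genes were filtered with filterByExpr (minimum count 10, minimum total 15), scaled by TMM, and tested with edgeR 4.0.16 (glmQLFit, glmQLFTest; R 4.3.3), with genotype as the single term, Benjamini-Hochberg adjustment, and FDR below 0.05 with a log2 fold change of at least 1 as the call. CPM use the TMM-scaled library sizes of the 6 mice of a line, and the values across 12 cortices one common scaling. Intervals are 95% Wald intervals on the fit's degrees of freedom. Totals ran from 23854190 to 31361972 counts, and intervals cover these libraries alone. Lists were described by counts, medians and sums, without a test over a list. Named genes were *Nova1*, *Nova2* and *Hif3a*; those past the FDR threshold; the 10 largest log2 fold changes either way at an unadjusted p below 0.05 with a mean of at least 1 CPM and groups apart; per list up to 3 genes at that p and up to 4 of the most abundant; and the 5 tested genes nearest to *Nova1* on either side. The sex-linked genes were named as a check of the libraries, and *Emcn*, *Egfl7*, *Lhx6* and *Angptl4* after their values were seen. Some genes that the rule names are not reported here. Members and lists were chosen with earlier results of these data known. Positions came from RefSeq GRCm38.p6 (22786 of 23038 symbols matched) and promoter windows from RefSeq of the same build. The scripts were tested on simulated data. Alternatives were upper-quartile and RLE scaling, other filters, DESeq2 1.42.0, edgeR's exact test, a robust fit, a fit of 12 cortices, a replicate block and leaving out each mouse.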

Additional observations from a re-analysis of the deposited data

Results flagged for a closer look

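Groups of 3 mice are too small for a test of single outlying samples, so the results listed here are named genes whose change differed between the knockouts by at least 1 on the log2 scale at an FDR below 0.05 (edgeR quasi-likelihood test of the change in *Nova1-/-* minus the change in *Nova2-/-*, 12 mice). *Nova1* gave -9.15, as the targeted gene of 1 line. *Ddx3y* gave 14.3, a Y-linked gene read at 126 CPM in *Nova1-/-* replicate 2 and at 138 and 156 CPM in wild-type replicates 2 and 3 of the *Nova2* litters.

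Genes of the meninges, the matrix and the vessel wall made up much of the rest. Named genes came partly from lists of such genes and from the largest *Nova1-/-* changes at an unadjusted p below 0.05. The make-up of this set and the sign in *Nova1-/-* follow in part from that choice. They do not describe all 113 transcripts that differed. *Cldn11* gave -2.11, *Col6a3* -1.96, *Col3a1* -1.88, *Col1a2* -1.84, *Crabp2* -1.74, *Gjb2* -2.33 and *Slc6a12* -1.93. *Plau* gave -1.69, the gap-junction gene *Gja1* -1.42, *Vtn* -1.17, the growth factor receptor gene *Kdr* -1.14 and *Pcdh12* -1.04. The macrophage lectin gene *Cd209f* gave -3.92 at a low level, where no mouse of the *Nova1* litters passed 2.12 CPM. For these genes the fold change in *Nova1-/-* was negative and that in *Nova2-/-* positive, and wild-type mice of the *Nova2* litters had the lowest mean level of *Col3a1*, *Cldn11*, *Crabp2*, *Col6a3*, *Col1a2* and *Gja1* among the 4 groups. *Cldn11*, *Kdr*, *Col6a3*, *Crabp2* and *Gja1* stayed below an FDR of 0.05 in all 18 alternatives, whereas *Col1a2* lost it in 11 of 18, *Slc6a12* in 9 of 18, *Ddx3y* in 8 of 17 (FDR up to 0.116), *Cd209f* in 7 of 17 (FDR up to 0.0703), *Col3a1* and *Plau* in 6 of 18, *Gjb2* and *Vtn* in 3 of 18 and *Pcdh12* in 1 of 18. The cause was not tested.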

How the results depend on the processing

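The number of changed transcripts was 2 under upper-quartile and RLE scaling, no filter, a robust fit, 12 cortices in 1 fit, or looser thresholds, 1 when 10 counts were required in every sample (which removes *Nova1*), 4 by DESeq2, 10 by edgeR's exact test, and 1 to 7 with a mouse left out. At an FDR below 0.05 alone these numbers were 1, 34, 54 and 1 to 10. *Hif3a* lost its call in 3 of the 6 fits with a mouse left out (log2 fold change 1.19 to 1.39 over the 6 mice, FDR up to 0.0948). Choices made after seeing the data were the sum of *Nova1-/-* replicates 2 and 3, which gave 2 changed transcripts, and leaving out both mice low in choroid plexus transcripts, which gave 1 changed, 1 at an FDR below 0.05 and *Hif3a* at 1.23 (FDR 0.449); fewer mice were then tested. *Nova1* kept its call in each fit that tested it (-9.69 to -8.59 with a mouse left out). Transcripts at an unadjusted p below 0.05 numbered 613 in the fit of 12 cortices and 794 to 1758 with a mouse left out. The 127 other named genes at an unadjusted p below 0.05 kept their direction in all 2023 values under alternatives. They were taken at that p in the same 6 mice that the alternatives refit, so the kept direction is not independent support. For the difference between the knockouts, 113 became 202 by DESeq2 and 59 (without *Nova2-/-* replicate 1) to 315 (without wild-type replicate 3) with a mouse left out.

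No paired analysis was possible within the *Nova1* litters because wild-type and knockout mice share no replicate number. With a replicate block in the *Nova2* litters, the number of differing transcripts was 197; same-numbered mice correlated at 0.109, 0.0214 and 0.189 in their deviations from the group means, so the numbers were not taken as pairs.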
